A study of Mus musculus with 6 samples.

Results

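Lipid-associated macrophages are macrophages that gather in fat-laden and scarred liver, around dying, lipid-filled cells. They develop largely from blood monocytes and carry a shared set of genes for sensing, engulfing and degrading lipid. Resident Kupffer cells, the macrophages that live in the sinusoids of healthy liver, are known to be lost and partly replaced by recruited cells in steatohepatitis. The receptor TREM2 binds lipids and apolipoproteins and signals through the adaptor TYROBP. The genes described here are 10 that mark the lipid-associated state: Trem2, Gpnmb, Cd9, Fabp5, Lpl, Itgax, Cd63, Lgals3, Cd68 and Ms4a7. They were chosen by symbol, and each of the 10 matched 1 row of the 55416 gene rows counted. All 10 passed the filter on low counts, as did 17083 genes in all.

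The libraries came from polyadenylated RNA of whole liver of male mice, 3 libraries per genotype. All mice carried Ephb2flox/flox, that is, a floxed copy of Ephb2 on both chromosomes. The mice called WT had no Cre, and those called KO carried PdgfrbCreERT2, a Cre that tamoxifen switches on in cells with an active Pdgfrb promoter, which in liver are mainly stellate cells and pericytes. Macrophages are not known as cells in which this driver acts. Both genotypes were given tamoxifen for 5 days at 8 to 10 weeks of age and then 8 weeks of a choline-deficient, amino acid-defined diet with 45% of calories from fat, 0.1% methionine and 1% cholesterol. No mice on a normal diet were compared here, so how far these genes had moved from healthy liver was not measured. No mice had Cre with an unfloxed Ephb2, so the effects of Cre and of the deletion cannot be told apart.

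Total counts ran from 21160690 to 26339251 per library. Albumin RNA (Alb), the chief hepatocyte transcript, stood at 32565 to 42996 CPM, read counts brought to one library total with TMM scaling. Ephb2 itself was at 9.46, 8.28 and 12.4 CPM in the WT and 6.01, 8.87 and 6.95 CPM in the KO libraries, a log2 fold change of -0.46 with a 95% interval of -0.94 to 0.01 (edgeR adjusted p = 0.850), and the genotypes overlapped in the targeted gene. Liver cells without the driver retain an intact Ephb2. The labels give the replicates as separate samples and do not say whether each came from its own mouse. What the spread behind each p-value measures is therefore not stated. All pairs of libraries differed by more than sampling noise (chi-square per degree of freedom of at least 11.3). The libraries differed in acute phase RNA, made by hepatocytes in inflammation: serum amyloid A RNA (Saa1) reached 423, 51.6 and 595 CPM in WT against 57.3, 1857 and 80.4 CPM in KO libraries.

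The defining macrophage genes were present in every library. Adgre1, which encodes the F4/80 antigen, was at 88.2 to 167 CPM in WT against 99.5 to 123 CPM in KO livers, and Csf1r, the receptor for the macrophage growth factor CSF1, at 227 to 405 and 220 to 286 CPM. Several of the 10 genes are not made by macrophages alone, and the cells that made each RNA were not measured here. Itgax (CD11c) is also a dendritic cell gene, Cd9, Cd63 and Lgals3 are made by bile duct and stromal cells too, and Lpl and Fabp5 by fat cells among others. Adipoq, the defining fat cell gene, had no count in 4 libraries and 2 counts each in KO replicates 2 and 3. In RNA from whole tissue, fewer cells of a type and less RNA per cell cannot be told apart.

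Promoter windows from RefSeq (GRCm38.p6), from 250 bases before to 50 after the start site, matched 8 of the 10 genes, all but Fabp5 and Lpl. The windows of Trem2, Cd68, Lgals3 and Gpnmb are shown because Cd68, Lgals3 and Gpnmb were, in that order, the 3 of the 10 genes whose levels across the libraries lay closest to those of Trem2. They lie at chr17:48346151-48346450 (plus strand), chr11:69666121-69666420 (minus strand), chr14:47373610-47373909 (plus strand) and chr6:49036268-49036567 (plus strand). Capitals mark a PU.1 core (GAGGAA, or on the other strand TTCCTC), bound by the factor that specifies macrophages, or an AP-1 site (TGACTCA, or on the other strand TGAGTCA). No match of one motif overlapped a match of another.
Trem2: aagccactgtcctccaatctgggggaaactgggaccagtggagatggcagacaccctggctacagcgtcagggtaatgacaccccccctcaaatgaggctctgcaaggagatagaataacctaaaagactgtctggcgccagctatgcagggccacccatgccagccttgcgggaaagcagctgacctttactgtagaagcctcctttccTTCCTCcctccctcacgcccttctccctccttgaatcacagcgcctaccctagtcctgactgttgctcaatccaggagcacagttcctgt
Cd68: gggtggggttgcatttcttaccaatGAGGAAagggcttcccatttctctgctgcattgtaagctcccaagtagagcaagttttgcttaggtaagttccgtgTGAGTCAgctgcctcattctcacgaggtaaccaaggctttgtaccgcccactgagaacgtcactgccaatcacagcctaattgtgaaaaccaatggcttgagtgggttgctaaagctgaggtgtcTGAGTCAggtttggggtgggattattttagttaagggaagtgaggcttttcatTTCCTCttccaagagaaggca
Lgals3: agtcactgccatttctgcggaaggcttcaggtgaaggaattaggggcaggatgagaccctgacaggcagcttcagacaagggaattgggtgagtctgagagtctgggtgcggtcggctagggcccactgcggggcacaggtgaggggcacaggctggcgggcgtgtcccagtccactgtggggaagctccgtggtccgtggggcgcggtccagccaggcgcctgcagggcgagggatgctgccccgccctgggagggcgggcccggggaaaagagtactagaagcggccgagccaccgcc
Gpnmb: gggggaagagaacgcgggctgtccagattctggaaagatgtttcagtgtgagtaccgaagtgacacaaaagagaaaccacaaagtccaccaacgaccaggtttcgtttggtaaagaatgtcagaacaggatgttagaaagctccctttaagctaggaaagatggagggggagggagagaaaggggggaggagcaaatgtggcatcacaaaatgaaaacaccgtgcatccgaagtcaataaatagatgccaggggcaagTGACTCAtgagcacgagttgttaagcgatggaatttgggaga
The PU.1 core was found in 4 of the 9 windows of these genes (Trem2, Cd63, Cd68 and 1 of the pair listed for Ms4a7) and in 28.3% of all 32851 windows of 300 bases. The AP-1 site was found in 3 of the 9 (Gpnmb, Itgax and Cd68) and in 5.202% of all windows. The Lgals3 window held none of the motifs searched. By the RefSeq start site, the AP-1 site in the Gpnmb window starts at base 9 of the transcript, and Cd68 held 2 such sites. The gene start of Gpnmb in GENCODE (49036546) lies downstream of that site. The GENCODE start of Lgals3 (47367751) lies upstream of its whole window. The M-box core (CATGTG or CACATG), read by MITF and TFE factors, was found in 2 (Cd9 and the other window of Ms4a7) and in 14.2% of all windows. The E-box CACGTG was found in 0 of the 9 and in 7.15% of all windows. A match describes letters in a window and not a bound site.

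Across genes, levels were compared per length, as TPM, the counts per base of merged exon brought to one total in each library. Over the 6 libraries Gpnmb stood highest at 331 ± 31.2 TPM (SD, n = 6), followed by Lgals3 at 295 ± 35.5, Cd68 at 231 ± 26.04 and Lpl at 200 ± 29.8 TPM. The ranges of neighbours in this part of the order overlapped. Cd9 at 122 ± 21.2 TPM lay below the range of Lpl and overlapped Cd63 at 94.4 ± 19.2 TPM, and Itgax stood at 57.8 ± 9.63 TPM. Trem2 at 44.1 ± 4.97 and Fabp5 at 39.6 ± 4.798 TPM overlapped each other, and Ms4a7 was lowest at 21.3 ± 5.13 TPM. Gpnmb ranked 335 among the 52135 genes with a length, which places this transcript of phagocytes among the abundant RNAs of these livers. The order depends on the length used. With the length of 1 principal transcript per gene, Gpnmb stayed first (434 TPM), Lpl came second (380 TPM), Trem2 stood at 150 TPM and Itgax was last at 51.2 TPM.

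No difference between KO and WT liver was called in any of the 10 genes. With edgeR's quasi-likelihood test 0 of the 10 passed an adjusted p of 0.05, where 0% of the 17083 genes tested did, and 0 of the 10 had an unadjusted p under 0.05, against 5.19% of all genes (3.08% with KO higher). DESeq2 and limma-voom also called 0 of the 10. The genotypes overlapped in all 10, while in 11.1% of all genes they did not (KO higher in 6.21%, lower in 4.9%). Of the 10 log2 fold changes 8 were positive (9 by library size or upper-quartile scaling), where 49% of all genes were positive, and their median was 0.07 beside -0.005 over all genes. The count rests on single libraries: it was 4 without WT replicate 2, 6 without KO replicate 2 or KO replicate 3, and 10 without WT replicate 3. Except for Ms4a7, the fold changes ran from 0.932 to 1.12 and their 95% intervals from 0.686 to 1.52. The interval of Ms4a7 was 0.995 to 1.73, so a 2-fold difference lay outside the intervals of all 10. The median went to -0.02 without WT replicate 2, the library in which most of these genes were lowest, and to 0.16 without WT replicate 3.

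**Figure D1:**
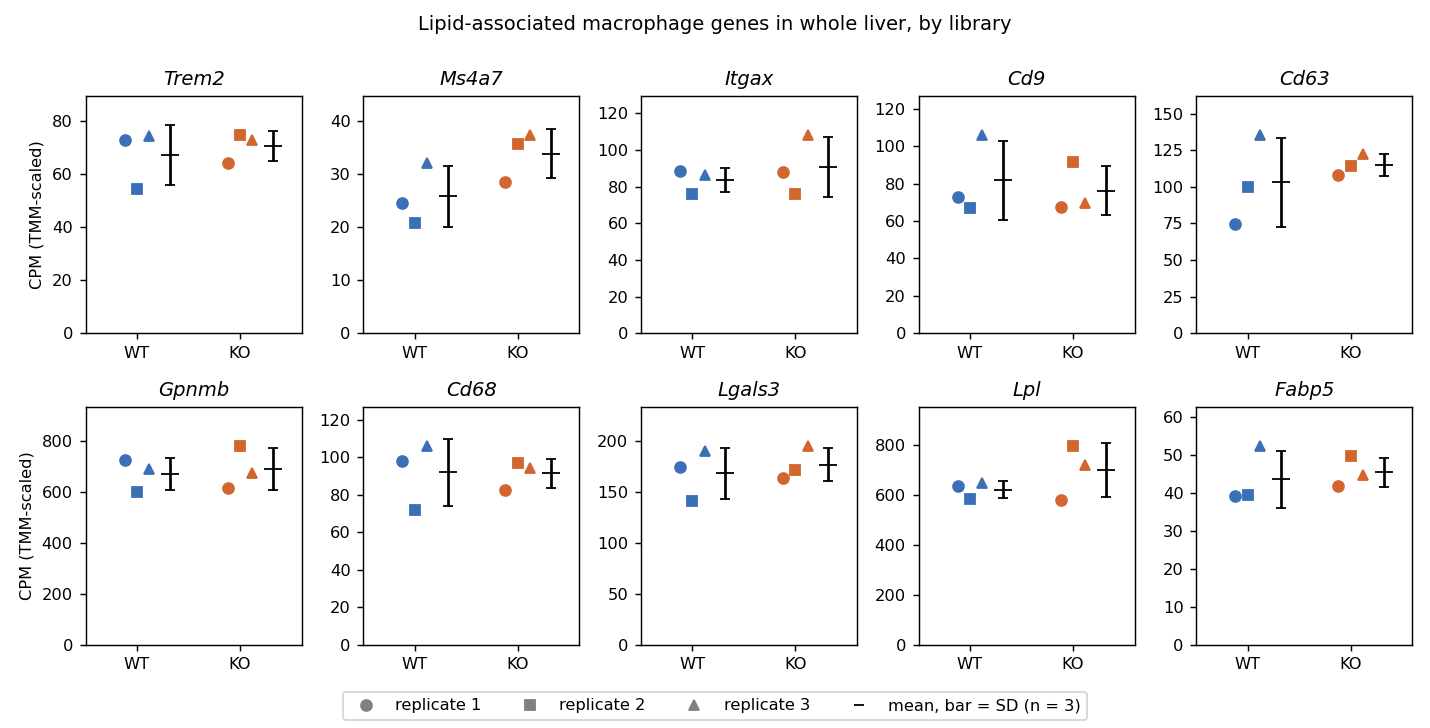
Level of each gene (CPM, TMM-scaled, linear axis from 0) in the 3 WT (blue) and 3 KO (orange) libraries, with symbols for the replicate numbers and the mean with SD in black. The points of the genotypes overlap in each of the 10 panels, and Ms4a7 is the gene with the highest KO points relative to WT.

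Among the surface receptors, Trem2 was at 72.7, 54.2 and 74.4 CPM in the WT and 64.0, 74.6 and 72.8 CPM in the KO libraries. WT replicate 2 was lowest and KO replicate 1 next lowest, and the other libraries lay between 72.7 and 74.6 CPM. The log2 fold change was 0.07 (SE 0.13, edgeR adjusted p = 0.918), or 1.05-fold with a 95% interval of 0.848 to 1.302. Trem2 (ENSMUSG00000023992) lies on chromosome 17 of GRCm38 at 48346401 to 48354147, with up to 5 exons in a transcript.

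Ms4a7 (ENSMUSG00000024672), a membrane protein of macrophages whose gene sits in the MS4A cluster on chromosome 19 (11321039 to 11336146), was at 24.5, 20.8 and 32.1 CPM in WT against 28.5, 35.6 and 37.3 CPM in KO libraries. KO replicates 2 and 3 stood above every WT library, and KO replicate 1 lay below WT replicate 3. The log2 fold change was 0.39 (SE 0.17), 1.31-fold with a 95% interval of 0.995 to 1.73. This was the largest of the 10 and did not pass (unadjusted p = 0.0531, edgeR adjusted p = 0.850). It ranged from 0.25 to 0.58 with 1 library left out and was positive in all 17 alternatives run, where the adjusted p lay between 0.585 and 0.9998. The unadjusted p was 0.0526 with DESeq2, 0.0451 with limma-voom and 0.0170 with edgeR by library size alone. Library size alone also moved the median log2 fold change of all genes to 0.07. The MS4A family, Ms4a7 included, did not share one direction, with 6 of 11 tested members positive and a median of 0.08. Ms4a8a was at 1.19, 0.840 and 3.35 CPM in WT against 0.523, 0.569 and 0.758 CPM in KO libraries, a log2 fold change of -1.53 (SE 0.54, edgeR adjusted p = 0.850) without overlap.

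Itgax (ENSMUSG00000030789; chromosome 7, 128129547 to 128150657), the alpha X integrin chain CD11c of dendritic cells and recruited macrophages, was at 88.4, 76.2 and 86.2 CPM in WT against 87.8, 75.9 and 108 CPM in KO libraries. KO replicate 3 alone lay above the WT range, and without it the log2 fold change of 0.12 (SE 0.14, edgeR adjusted p = 0.880) became -0.03. In the list of dendritic cell and MHC class II markers 14 of 15 were positive, with a median of 0.27 and a summed level of 883 to 1227 CPM in WT against 887 to 1558 CPM in KO libraries. Flt3, the growth factor receptor of dendritic cells, was at 2.77 to 3.40 CPM in WT against 4.14 to 4.84 CPM in KO libraries, and none of the 15 passed edgeR's test. Their part in Itgax was not tested.

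The tetraspanins Cd9 and Cd63 organise membrane proteins at the cell surface and in late endosomes. Cd9 was at 72.7, 66.8 and 106 CPM in WT against 67.7, 91.3 and 69.6 CPM in KO libraries. WT replicate 3 was the highest, and without it the log2 fold change of -0.10 (SE 0.19, edgeR adjusted p = 0.918) became 0.13. Cd63 was at 74.4, 99.6 and 135 CPM in WT against 108, 115 and 123 CPM in KO libraries, the widest spread of the 10 at 1.82-fold from lowest to highest. All KO values lay inside the WT range (log2 fold change 0.16, SE 0.19, edgeR adjusted p = 0.884). Without WT replicate 1, the low end of that range, the value was -0.04. Over 9 tetraspanins, these included, 3 were positive with a median of -0.07. Bile duct cells also make both proteins. Their marker list had 10 of 12 members positive, 4 of them without overlap (6.21% of all genes were higher in KO without overlap), a median of 0.35 and a summed level of 1012 to 1344 CPM in WT against 1371 to 1729 CPM in KO libraries, and Krt19, the duct keratin, was at 13.02 to 17.56 and 18.9 to 22.1 CPM. Spp1, which is also on the list of lipid-associated genes, made up 58.5 to 67.5% of this sum, and without it the sum was 398 to 539 CPM in WT against 563 to 678 CPM in KO libraries. The part of bile duct RNA in these values was not tested. Cd9 (ENSMUSG00000030342; chromosome 6, 125460266 to 125494791) is overlapped by antisense genes with at most 7 counts in a library, and Cd63 (ENSMUSG00000025351; chromosome 10, 128900989 to 128912822) has a pseudogene with 23 to 33 counts beside 1503 to 3020 for Cd63.

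The phagocytic and lysosomal genes had the highest TPM of the 10 over merged exons. Gpnmb, a membrane glycoprotein of lysosomes and phagosomes, was at 722, 598 and 687 CPM in WT against 614, 777 and 672 CPM in KO libraries. The highest and the lowest of the 6 values belonged to different genotypes and differed 1.299-fold, the narrowest spread of the 10. The log2 fold change was 0.04 (SE 0.14, edgeR adjusted p = 0.959), 1.03-fold with a 95% interval of 0.821 to 1.29. Gpnmb (ENSMUSG00000029816) lies on chromosome 6 at 49036546 to 49070929 with up to 11 exons. Cd68 (ENSMUSG00000018774; chromosome 11, 69664213 to 69666153), the macrosialin of late endosomes and a general macrophage marker, was at 98.2, 71.7 and 106 CPM in WT against 82.7, 97.0 and 94.4 CPM in KO libraries. Its log2 fold change was -0.01 (SE 0.15, edgeR adjusted p = 0.992) with TMM scaling, 0.08 by library size alone and 0.03 with upper-quartile scaling, so its direction depends on the scaling. Lgals3 (ENSMUSG00000050335; chromosome 14, 47367751 to 47386160), galectin-3, a lectin that marks damaged lysosomes and is secreted by macrophages, was at 174, 141 and 190 CPM in WT against 163, 172 and 195 CPM in KO libraries (log2 fold change 0.07, SE 0.13, edgeR adjusted p = 0.918). In a list of 29 lysosomal genes, among them the proton pump subunit Atp6v0d1, 4 were positive, with a median of -0.10 and none past edgeR's test. Atp6v0d1 had a log2 fold change of -0.22 (SE 0.10).

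The lipid-handling genes were Lpl (ENSMUSG00000015568; chromosome 8, 68880491 to 68907448), which releases fatty acids from lipoproteins, and Fabp5 (ENSMUSG00000027533; chromosome 3, 10012548 to 10016607), which carries them inside the cell. Lpl was at 635, 581 and 646 CPM in WT against 580, 793 and 720 CPM in KO libraries. KO replicates 2 and 3 lay above the WT range and KO replicate 1 at its lower end. The log2 fold change was 0.17 (SE 0.15, edgeR adjusted p = 0.858), 1.12-fold with a 95% interval of 0.891 to 1.42, and it was positive in all 17 alternatives. In the list of genes that act on or beside lipoprotein lipase, 5 of 16 were positive, the median was -0.15 and none passed edgeR's test. Angptl4, a secreted inhibitor of the enzyme, was at 131, 110 and 166 CPM in WT against 76.2, 49.5 and 56.8 CPM in KO libraries, a log2 fold change of -1.16 (SE 0.20, edgeR adjusted p = 0.850, called by DESeq2) without overlap. Angptl8, a secreted liver protein that rises with feeding, had a log2 fold change of 0.74 (SE 0.32). Fabp5 was at 39.2, 39.4 and 52.2 CPM in WT against 41.9, 49.6 and 44.6 CPM in KO libraries, all KO values inside the WT range (log2 fold change 0.06, SE 0.13, edgeR adjusted p = 0.930). Of 10 fatty acid binding protein genes 5 passed the count filter, and Fabp5 alone of these was positive. Fabp4 of fat cells, endothelium and macrophages was at -0.58 (SE 0.44) and Fabp7 at -0.59 (SE 0.27).

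**Figure D2:**
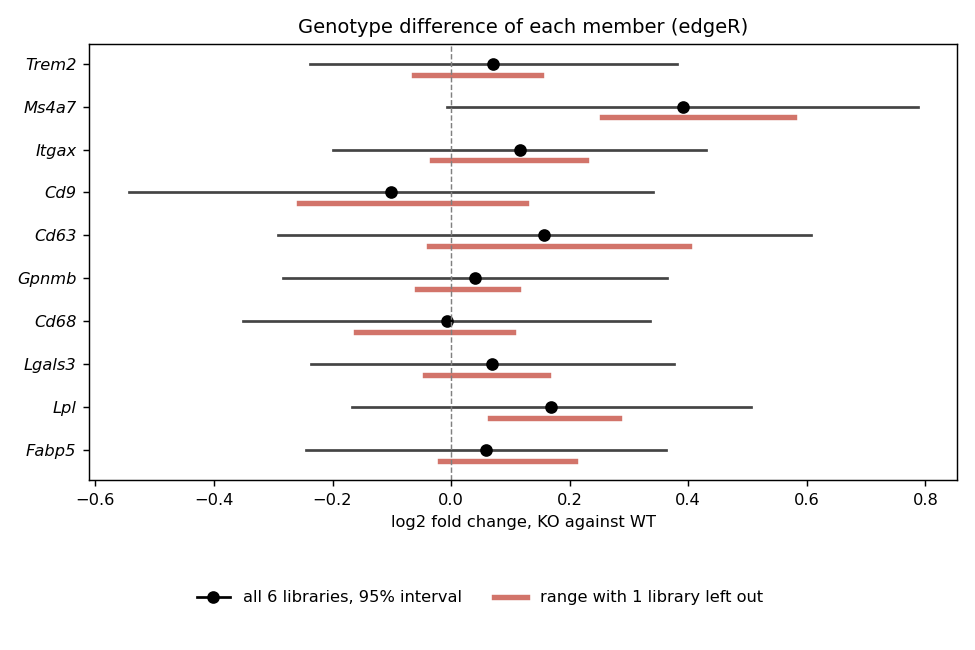
Log2 fold change of each gene, KO against WT (points, edgeR, 6 libraries) with its 95% interval (black lines) and the range of values when 1 library is left out (red bars). Each of the 10 intervals holds 0, and the red bars of Ms4a7 (0.25 to 0.58) and Lpl (0.07 to 0.28) lie wholly above 0.

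For each of the 10 genes the wider of the within-genotype ranges exceeded the difference between the genotype means. WT replicate 2 held the lowest level of 6 of the 10, and within the WT group of 8, while WT replicate 3 held the highest WT level of 8. Within the KO group, replicate 1 was lowest for 9 and replicate 2 highest for 6. Trem2 and Cd68 had much the same profile. Their log2 levels, each centred on its mean over the 6 libraries, differed by 0.04 on average, and Cd68 was the third closest to Trem2 among 13052 genes with an established symbol and a mean of at least 1 CPM. Among the closest 5 were also Snapc5 (0.03), Mad1l1 (0.04), Tmem179b (0.04) and Nde1 (0.04). Lgals3 ranked 34 and Gpnmb 116, whereas Cd9 ranked 5989 and Cd63 8272. For Gpnmb the 5 closest were Fam129b, Manf, Leo1, Sec11c and Gramd1a at 0.02 to 0.04, with Lpl at rank 247 and Trem2 at 409. This likeness rests on 6 libraries that share their scaling, and genes of small variation lie close to each other by this measure.

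**Figure D3:**
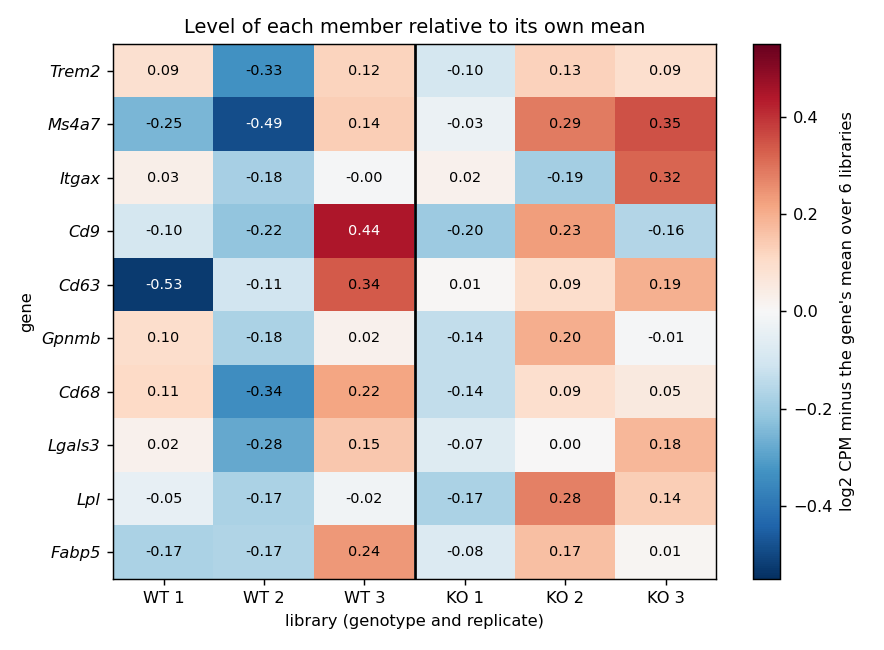
Log2 CPM of each gene (rows) in each library (columns, WT left and KO right of the line) minus the gene's mean over the 6 libraries, with the value in each cell. The WT replicate 2 column is negative for all 10 genes, from -0.11 for Cd63 to -0.49 for Ms4a7, and the columns of a genotype do not share one colour.

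The 10 genes were next set beside other macrophage markers. In a list of 19 genes common to macrophages, 4 were positive, the median log2 fold change was -0.14 and the summed level was 2161 to 3720 CPM in WT against 2396 to 2963 CPM in KO libraries. Mertk, a receptor for dying cells, was at 89.1, 74.5 and 124 CPM in WT against 72.2, 73.2 and 72.4 CPM in KO libraries, without overlap (log2 fold change -0.40, SE 0.17, edgeR adjusted p = 0.850), and Spi1, which encodes PU.1, was at -0.31 (SE 0.19). In the list of Kupffer cell genes all 13 tested members were negative, from -1.14 to -0.04, with a median of -0.69. Of these, 3 had an unadjusted edgeR p under 0.05 (5.19% of all genes did). Without overlap 1 was lower in KO (4.9% of all genes were). The summed level was 751 to 1387 CPM in WT against 514 to 875 CPM in KO libraries. Clec4f, a lectin made by resident Kupffer cells, was at 102, 60.7 and 144 CPM in WT against 67.6, 58.5 and 24.1 CPM in KO libraries, and Vsig4, a complement receptor, was at 39.2, 29.7 and 77.3 and at 29.5, 30.1 and 14.4 CPM. No gene of either list passed edgeR's test.

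The mean log2 level of the 10 lipid-associated genes exceeded that of the Kupffer list by 2.22, 2.34 and 1.71 in WT and by 2.36, 2.68 and 3.39 in KO libraries. The lowest KO value thus lay only just above the highest WT value. The mean difference between genotypes was 0.72 on the log2 scale. It was 0.43 without KO replicate 3, the library with the lowest Kupffer markers, and 0.53 without WT replicate 3, the one with the highest. The 19 genes common to macrophages likewise exceeded the Kupffer list by 1.73, 1.69 and 1.51 in WT and by 1.74, 2.11 and 2.48 in KO libraries. These values also did not overlap, with a mean difference of 0.47. Both differences have the Kupffer list as their reference. Its median log2 fold change was -0.69, beside 0.07 for the 10 genes and -0.14 for the 19. Against the list of genes common to macrophages, the 10 exceeded it by 0.49, 0.65 and 0.20 in WT and by 0.62, 0.58 and 0.90 in KO libraries. These overlapped, and the mean difference of 0.25 dropped to 0.13 when WT replicate 3 was left out and to 0.15 when KO replicate 3 was. The lists were chosen with earlier results known and these differences of means carry no test.

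**Figure D4:**
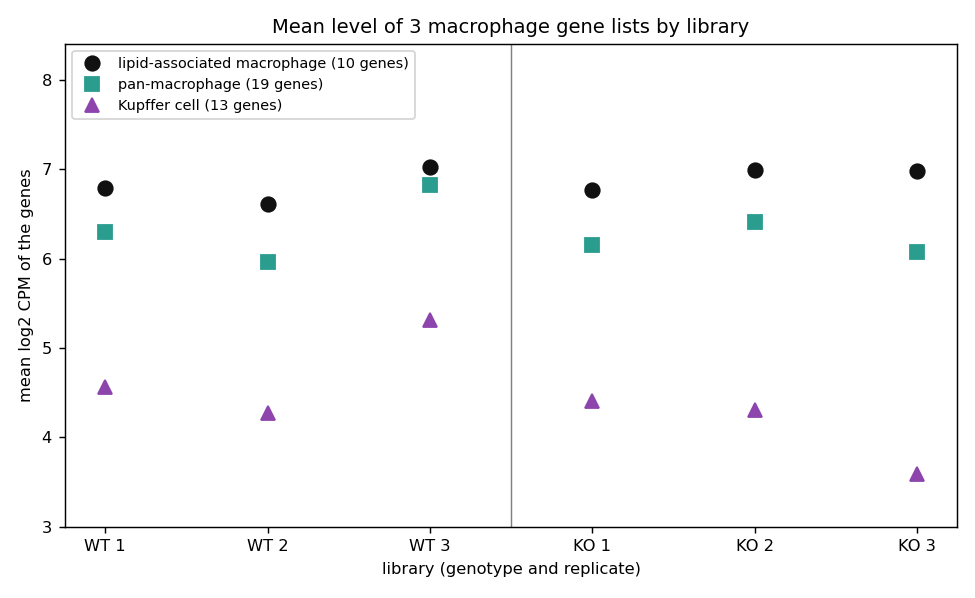
Mean log2 CPM of the 10 lipid-associated macrophage genes (circles), 19 genes common to macrophages (squares) and 13 Kupffer cell genes (triangles) in each library. The circles run from 6.61 to 7.02 in WT and from 6.77 to 6.99 in KO libraries, and the triangles from 4.27 to 5.32 and from 3.59 to 4.41.

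A fit with the mean of the 19 macrophage genes as a covariate, added after the data were seen, compared the genotypes at equal macrophage marker RNA. All 10 log2 fold changes were then positive, with a median of 0.14 beside 0.002 over all genes. None passed (edgeR adjusted p from 0.754 to 0.945). The covariate genes were themselves mostly negative (15 of 19), so the fit raises the fold change of a gene that follows them. Ms4a7 was at 0.51 (SE 0.13, unadjusted p = 0.00377, edgeR adjusted p = 0.754) and Trem2 at 0.15 (SE 0.11). With the acute phase mean as covariate in its place, 9 were positive with a median of 0.10 beside -0.004 over all genes. Ms4a7 was then at 0.45 (SE 0.15, unadjusted p = 0.0188, edgeR adjusted p = 0.801).

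Other genes of the lipid-associated state were split between the directions. Of 24 such genes outside the 10, 23 were tested, 8 were positive and the median was -0.06. Spp1, osteopontin, was at 613, 805 and 834 CPM in WT against 803, 1166 and 970 CPM in KO libraries (log2 fold change 0.38, SE 0.18, edgeR adjusted p = 0.850), and bile duct cells make it as well. Plin2, the coat protein of lipid droplets in hepatocytes and foam cells, was at 750, 531 and 703 CPM in WT against 552, 538 and 405 CPM in KO libraries (-0.41, SE 0.18, edgeR adjusted p = 0.850). Both genes overlapped between the genotypes.

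In the list of TREM2 signalling genes 17 of 18 were negative, with a median of -0.08 and none past edgeR's test. Syk, the kinase that docks on the adaptor, was at -0.26 (SE 0.16), Ms4a4a, a regulator of TREM2 shedding, at -0.65 (SE 0.40), and the adaptor Tyrobp, named for its role after its value was seen, at -0.07 (SE 0.12). Of the TREM family, Trem2 alone of 6 was positive, at 0.07 (SE 0.13), and it was at -0.06 without WT replicate 2. Trem1, Trem3 and Treml1 had low levels, with means of 0.97, 0.54 and 0.50 CPM. Treml4 of blood monocytes and splenic macrophages was at -0.90 (SE 0.37, edgeR adjusted p = 0.850). Of 8 genes of cholesterol efflux and the LXR receptors 3 were positive, with Nr1h3, which encodes LXR-alpha, at -0.25 (SE 0.13).

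Markers of monocytes, the source of recruited macrophages, were split, with 4 of 11 positive and a median of -0.13. Hp, among the negative ones at a mean of 4648 CPM, is also on the acute phase list. Ccr2, the receptor that brings monocytes into tissue, was at 31.9, 33.5 and 31.0 CPM in WT against 29.9, 37.2 and 36.7 CPM in KO libraries, overlapping. Of 11 genes of monocyte recruitment 8 were tested, with 6 positive. Cx3cl1, the membrane-bound chemokine for CX3CR1, was at 19.4, 22.6 and 22.4 CPM in WT against 28.8, 31.4 and 30.6 CPM in KO libraries, without overlap (log2 fold change 0.50, SE 0.10, edgeR adjusted p = 0.850). Csf1 was at 0.15 (SE 0.13). Neutrophil markers had all 11 tested members negative and a median of -0.69, with a summed level of 281 to 2484 CPM in WT against 282 to 2301 CPM in KO libraries. Lcn2, which is also on the acute phase list, made up 82.4 to 94.5% of this sum, and without it the sum was 35.2 to 199 CPM in WT against 43.5 to 126 CPM in KO libraries, overlapping. Of the 12 sinusoidal endothelial genes 1 was positive (median -0.22), of 15 stellate and fibroblast genes 7 (median -0.01), of 12 hepatocyte genes 2 (-0.06), of 13 T and NK cell genes 10 (0.14), of 7 tested B cell genes 5 (0.09), of 3 tested fat cell genes 2 (0.06) and of 14 acute phase genes 3 (-0.18). None of the 270 genes tested in the 23 lists, 5 of them among the 10, passed edgeR's test. At an unadjusted p under 0.05 there were 23 of the 270, or 8.52%, where 5.19% of all genes tested were, and DESeq2 called 1 of them, Angptl4.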

How the data were processed

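The table the authors deposited holds raw counts of reads by Ensembl gene ID in 6 libraries. The submitters' processing notes name the aligner STAR (2.7.6a), the counter featureCounts (1.6.3), the package DESeq2 (1.30.0) and the build GRCm38, also as mm10, but give them no roles. Which annotation release and strand setting were used is not given in the sources used here, so antisense genes and near copies can share reads. Symbols, positions and exon lengths came from GENCODE M21 (GRCm38), which held 52135 of 55416 IDs.

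The counts were tested with edgeR 4.0.16 in R 4.3.3 (TMM, filterByExpr with minimum count 10 and total 15, glmQLFit without robust estimation, genotype as sole term) with Benjamini-Hochberg adjustment over 17083 genes at 0.05. Log2 levels used a prior count of 2. The members had 494 to 20907 counts per library. No libraries agreed within sampling noise (chi-square per degree of freedom of at least 11.3). The procedure was tested on simulated counts. Alternatives were other scalings and filters, DESeq2 1.42.0, limma-voom from limma 3.58.1, robust fitting, a replicate block, a threshold of 0.1, a prior count of 0.5 and each library left out. Fits with a marker mean as covariate and lengths of principal transcripts were added after seeing the data.

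The members, the 23 other lists and the rule for naming genes were chosen with earlier results of these data known. The rule named the members, 12 defining genes and, per list, the 2 genes with the smallest p and a mean of at least 1 CPM, and, for likeness, the 5 genes with the smallest mean absolute difference. One gene that the rule names is not reported here. One listed symbol, Tf, matched no row.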

Additional observations from a re-analysis of the deposited data

How the results depend on the processing

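The count of genes called over the whole table was 0 in the reported fit and under most alternatives, 3 without a count filter, 8 with DESeq2, which gave no adjusted p for 664 genes, and 0 to 2 with 1 library left out. None of the 10 genes was called under any of these. With 1 library left out, their median log2 fold change ran from -0.02 to 0.16, the difference from the Kupffer list from 0.43 to 0.95 and that from the common macrophage list from 0.13 to 0.36. Library size alone moved the median of all genes to 0.07 and that of the 10 to 0.16. Signs turned as follows, none past the test, and the cause was not tested. Cd68 was at 0.083 by library size, 0.031 with upper-quartile scaling, 0.0061 with limma-voom, 0.0076 with the replicate block, 0.057 with the acute phase and 0.090 with the macrophage covariate. Cd9 was at 0.042 with the macrophage covariate. Values with 1 library left out ran from -0.063 to 0.15 for Trem2, -0.058 to 0.11 for Gpnmb, -0.26 to 0.13 for Cd9, -0.019 to 0.21 for Fabp5, -0.032 to 0.23 for Itgax, -0.038 to 0.40 for Cd63, -0.045 to 0.16 for Lgals3 and -0.16 to 0.10 for Cd68. Lpl and Ms4a7 stayed positive. The labels state no pairing of samples by replicate number. Deviations from the group means of same-numbered libraries correlated at -0.03, -0.44 and -0.31 across genes. Such deviations cancel out within each group of 3, so these values cannot decide whether samples were paired. With the replicate block 0 genes were called and the median of the 10 was 0.08. With counts of 494 or more, the spread between replicate libraries is the main limit of these comparisons.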
